A study of Mus musculus with 2 samples.

Results

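A set of 60 cell proliferation genes was followed in mouse retina: genes of DNA replication, of mitosis and of the cell cycle engine, chosen by name. The choice was made with earlier results of these data known. Of 21367 named genes on the array, these 60 were read by 81 probes: 25 mitosis genes, 15 DNA replication genes, 14 cyclins, kinases and Cdc25 phosphatases, 2 transcription factors and 4 inhibitors of cyclin-dependent kinases. A probe was taken as reading a gene when the transcript it is annotated to is a RefSeq transcript of that gene. All 60 genes had a probe, 44 of them 1 probe and 16 several.

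Total RNA from dissected retinas of mice at postnatal day 12 was measured on 1-colour arrays, with 1 array for Samd7 KO retina and 1 for wild-type retina. Samd7 encodes a sterile alpha motif protein of photoreceptors. The labels name no strain, no deleted part of the gene and no number of animals or retinas behind each RNA sample. There were no replicates, so every difference compares these 2 arrays and none has a test. In bulk RNA, fewer cells of a type and less RNA per cell cannot be told apart.

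The single named Samd7 probe was higher on the array labelled knockout and could not be used to check the labels. The arrays are therefore called knockout-labelled and wild-type-labelled throughout. It read 48967 on the knockout-labelled array, against 14769 on the wild-type-labelled array, which is 3.44-fold higher after scaling. Where the probe lies relative to the deletion is not known here, and a probe outside the deleted part checks nothing. The direction of each difference below rests on the labels. All 8 photoreceptor marker genes listed were above background on both arrays.

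A dividing cell first copies its DNA, a step led by the Mcm helicase, its loading factors and the enzymes that make nucleotides. It then condenses and separates its chromosomes with kinesin motors, kinetochore proteins, mitotic kinases and B-type cyclins. In the mouse retina most progenitors have left the cycle by the stage sampled, and cells that still divide are few. Many mitosis genes are shut off in resting cells through a promoter element called the cell cycle genes homology region (CHR), whereas many replication genes are controlled through E2F sites.

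On the knockout-labelled array most mitosis genes had lower signals, and replication genes were closer to level. Of the 18 mitosis genes above background on both arrays, 17 (94.4%) were lower, with a median log2 difference of -0.26. Of the 14 replication genes, 10 were lower, with a median of -0.09. Across all 15256 named genes above background on both arrays 58.1% lay below 0 and the median was -0.02. A wider mitosis list, described below, lay near that share, with 26 of its 43 genes above background on both arrays (60.5%) lower. When the arrays were centred on their medians instead, 47.0% of all genes lay below 0, while 17 of 18 mitosis genes and 10 of 14 replication genes still did. Here and below a signal is the scanner's processed signal on the log2 scale, relative to the 75th percentile of that array, and a difference is knockout-labelled minus wild-type-labelled.

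Without any filter on dim probes, 21 of 25 mitosis genes and 10 of 15 replication genes were lower, against 62.4% of all 21367 named genes, with medians of -0.27 and -0.07. Few differences were large. Of the 51 genes above background on both arrays, 2 were at least 2-fold lower, Top2a and Kif11, against 0.616% of all genes, and 0 were at least 2-fold higher, against 1.05%. Counting also genes above background on 1 array only, whose difference is a bound, 4 were at least 2-fold lower, against 1.37% of 15910 genes, and 0 were at least 2-fold higher, against 1.58%. The added genes were Kif2c and Nuf2, which passed background on the wild-type-labelled array only and so could only be lower. With no filter Cenpf made it 5 of 60 lower, against 3.14%, and 0 higher, against 2.71%. At 1.5-fold only Cdk6 was higher, against 2.96% of the 15910 genes. Of the 51 genes above background on both arrays, 3 were at least 1.5-fold lower, against 293 of all 15256 such genes. The remaining 9 genes were not above background on both arrays: Kif23, Kif2c and Nuf2 were above it on the wild-type-labelled array only, and Cdc6, Aurkb, Cenpf, Ndc80, Ttk and Ccne2 on neither.

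Precision within the arrays came from probes printed as several spots. The standard deviation (SD) of the log2 difference among spots of 1 probe was 0.05 at mean signals of 0 or more (174 probes), 0.09 from -2 to 0 (75 probes), 0.19 from -4 to -2 (51 probes) and 0.37 below -4 (17 probes). It was 0.54 for dim probes not above background on both arrays. These values cover spot noise only and say nothing of the spread between animals. The 5th to 95th percentiles of all named genes were wider: -0.22 to 0.24 at 0 or more, -0.33 to 0.30 from -2 to 0 and -0.56 to 0.43 from -4 to -2. A difference beyond the spot SD can thus lie inside the spread of all genes, as those of Plk1, Ccna2, Cdc20 and Cdkn1b do.

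**Figure D1:**
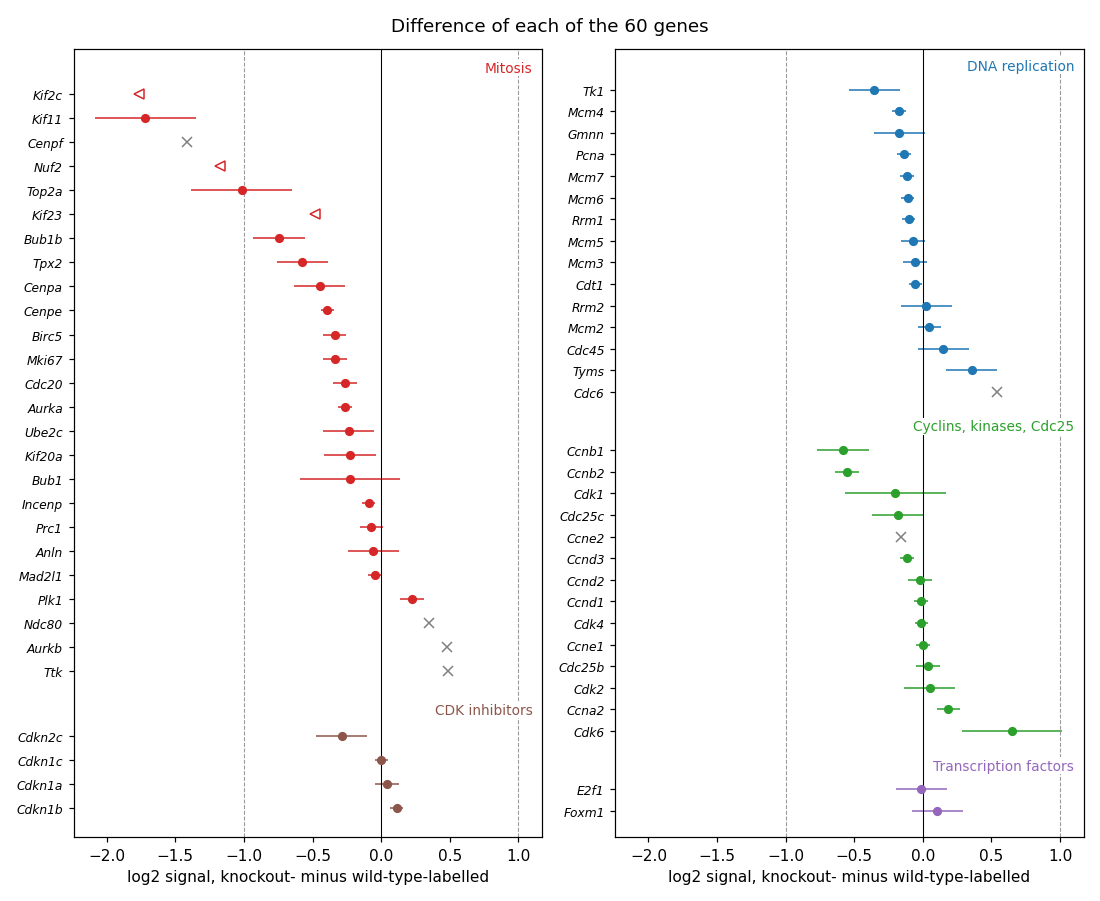
Difference in log2 signal, knockout-labelled minus wild-type-labelled, for each of the 60 genes by class. Filled points are genes above background on both arrays with the SD of repeated spots at that signal as bars, open triangles are upper bounds for genes above background on the wild-type-labelled array only, crosses are genes above background on neither, and dashed lines mark 2-fold. Of the 18 filled mitosis points only Plk1 lies above 0, whereas 4 of the 14 filled replication points do.

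Promoter letters are shown because they differ between the mitosis and replication genes. RefSeq windows of 300 bases on GRCm38.p6, 250 before to 50 after the annotated start, were at hand for 47 of the 60 genes. Sets of letters were searched on both strands, with overlapping matches counted separately: CHR (TTTGAA and its variant TTCGAA), E2F (TTCCCGC and TTCGCGC and TTGCCGC and TTGGCGC) and the letters bound by NF-Y, CCAAT. In the sequences below, written 5′ to 3′ on the gene's strand, capitals mark CHR and E2F letters. Top2a (chr11:99024140-99024439, minus strand) and Kif11 (chr19:37376132-37376431, plus strand) are the 2 genes past 2-fold on both arrays, and Plk1 (chr7:122159185-122159484, plus strand) is the mitosis gene that was higher. Mki67 (chr7:135716330-135716629, minus strand) holds both kinds of letters, and Mcm5 (chr8:75109259-75109558, plus strand) and Mcm6 (chr1:128359656-128359955, minus strand) are helicase subunits.
Top2a: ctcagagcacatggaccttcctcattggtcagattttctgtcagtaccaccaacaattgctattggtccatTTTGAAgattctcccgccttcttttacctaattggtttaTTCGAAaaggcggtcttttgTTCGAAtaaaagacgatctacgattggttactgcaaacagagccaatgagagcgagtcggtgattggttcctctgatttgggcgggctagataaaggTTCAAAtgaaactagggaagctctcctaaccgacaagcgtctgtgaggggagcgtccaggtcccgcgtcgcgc
Kif11: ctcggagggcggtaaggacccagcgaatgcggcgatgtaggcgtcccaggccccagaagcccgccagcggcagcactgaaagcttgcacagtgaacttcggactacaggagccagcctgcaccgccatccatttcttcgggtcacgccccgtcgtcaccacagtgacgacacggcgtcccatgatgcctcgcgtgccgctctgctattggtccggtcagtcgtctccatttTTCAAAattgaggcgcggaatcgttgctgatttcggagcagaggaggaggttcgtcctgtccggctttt
Plk1: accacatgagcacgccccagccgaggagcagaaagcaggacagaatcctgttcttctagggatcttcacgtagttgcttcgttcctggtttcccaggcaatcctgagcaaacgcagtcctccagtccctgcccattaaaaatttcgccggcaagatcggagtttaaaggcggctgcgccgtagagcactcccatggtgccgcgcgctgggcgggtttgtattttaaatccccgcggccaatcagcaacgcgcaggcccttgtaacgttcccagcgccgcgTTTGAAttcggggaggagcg
Mki67: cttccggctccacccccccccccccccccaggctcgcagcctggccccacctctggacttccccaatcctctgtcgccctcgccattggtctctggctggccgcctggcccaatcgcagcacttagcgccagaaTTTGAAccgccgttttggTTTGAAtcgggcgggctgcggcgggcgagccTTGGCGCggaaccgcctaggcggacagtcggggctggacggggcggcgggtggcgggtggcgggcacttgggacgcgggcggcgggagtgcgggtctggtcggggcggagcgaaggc
Mcm5: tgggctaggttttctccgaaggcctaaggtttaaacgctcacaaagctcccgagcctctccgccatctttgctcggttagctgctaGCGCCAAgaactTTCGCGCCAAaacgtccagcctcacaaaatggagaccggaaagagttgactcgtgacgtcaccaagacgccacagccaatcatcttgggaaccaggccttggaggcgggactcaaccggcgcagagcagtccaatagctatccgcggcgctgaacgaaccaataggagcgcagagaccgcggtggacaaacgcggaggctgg
Mcm6: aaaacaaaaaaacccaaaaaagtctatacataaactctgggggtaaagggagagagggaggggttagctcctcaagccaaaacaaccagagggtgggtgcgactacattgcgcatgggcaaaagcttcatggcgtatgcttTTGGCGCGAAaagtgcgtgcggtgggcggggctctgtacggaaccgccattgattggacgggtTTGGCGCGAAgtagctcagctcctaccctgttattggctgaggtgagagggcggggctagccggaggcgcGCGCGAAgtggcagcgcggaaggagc

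CHR letters were in the window of 17 of 21 mitosis genes (81.0%) and of 3 of 13 replication genes (23.1%), against 21.7% of all 27025 genes with a window. E2F letters ran the other way, in 1 of 21 mitosis genes (4.76%) and 8 of 13 replication genes (61.5%), against 10.9% of all genes. CHR and CCAAT letters together were in 14 of the 21 mitosis windows (66.7%), against 8.61% of all genes. In the mitosis genes the CHR matches lay at a median of -5 bases from the annotated start, and 17 of 23 lay within 100 bases of it. The match in Kif11 begins at -19, that in Plk1 at 30, and those in Top2a at -179, -140, -120 and -23. The E2F matches of Mcm6 begin at -109, -106, -46, -43 and 24. The low share of E2F letters in the 21 mitosis genes was not seen in a wider list of mitosis genes, described below. Of its 50 genes with a window, 19 held E2F letters and 33 held CHR letters. In the wider replication list 31 genes had a window, of which 20 held E2F letters and 6 held CHR letters. A match is a description of these letters, not a shown site of binding.

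**Figure D2:**
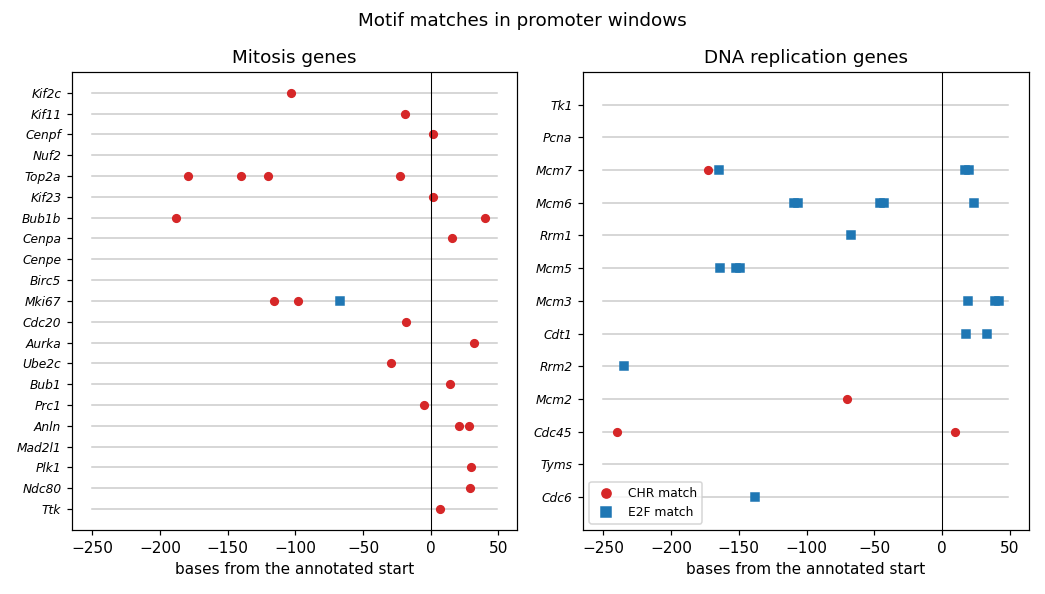
Start of each CHR (circles) and E2F (squares) match, in bases from the annotated start, in 1 promoter window for each mitosis gene and each replication gene that has one. Genes run from the lowest difference at the top to the highest. CHR matches lie in 17 of 21 mitosis windows and E2F matches in 8 of 13 replication windows.

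Lower values were found with and without these letters. Among mitosis genes above background on both arrays, 11 of 12 with CHR letters were lower, with a median of -0.26, and 3 of 3 without them were lower, with a median of -0.34. Over all the classes, the 15 genes with CHR and no E2F letters had a median of -0.24 with 11 lower, and the 9 with E2F and no CHR letters a median of -0.07 with 7 lower. Plk1 and Kif11, the highest and the lowest mitosis gene among those above background on both arrays, each hold 1 CHR match and 1 CCAAT match.

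The motors Kif2c and Kif11 had the lowest measured differences of the mitosis genes, both at dim probes, but not all mitotic motors were that low. Kif11, the kinesin that pushes spindle poles apart, had a log2 signal of -5.10 on the knockout-labelled array and -3.38 on the wild-type-labelled array. Its difference of -1.72 is 3.29-fold lower, against a spot SD of 0.37. The unscaled processed signals were 16.1 on the knockout-labelled array and 55.2 on the wild-type-labelled array, close to background.

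Kif2c, a kinesin that depolymerises microtubules at centromeres, read -6.57 on the knockout-labelled array, not above background, and -3.79 on the wild-type-labelled array. Taken against the lowest signal called above background, it was at least 3.40-fold lower. Its other probe, above background on neither array, differed by only -0.50. Kif23, a motor of the central spindle in cytokinesis, read -6.07 on the knockout-labelled array, not above background, and -5.08 on the wild-type-labelled array, which is at least 1.39-fold lower. Kif20a, a kinesin of the late mitotic midzone, was less apart, at -3.27 on the knockout-labelled array and -3.04 on the wild-type-labelled array with a difference of -0.23.

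Top2a, the topoisomerase that untangles sister chromatids, had a log2 signal of -4.92 on the knockout-labelled array and -3.90 on the wild-type-labelled array. It was 2.02-fold lower, with a difference of -1.02 against a spot SD of 0.37. Under the other scalings without normexp the difference ran from -1.01 to -0.97, on both sides of 2-fold. Mki67, which coats mitotic chromosomes and is the usual mark of dividing cells, was less far apart, at -2.03 on the knockout-labelled array and -1.69 on the wild-type-labelled array. Its difference was -0.34, against a spot SD of 0.09, and its second probe gave -0.26, so both probes were lower on the knockout-labelled array.

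Of the 5 kinetochore and centromere genes described next, Cenpe and Cenpa were above background on both arrays. Cenpe, a kinetochore motor, was at 0.10 on the knockout-labelled array and 0.49 on the wild-type-labelled array, and its difference of -0.39 lies far outside the spot SD of 0.05. Cenpa, the histone H3 variant of centromeres, read -2.74 on the knockout-labelled array and -2.29 on the wild-type-labelled array, a difference of -0.45. Nuf2, of the Ndc80 complex that grips microtubules, read -5.78 on the knockout-labelled array, not above background, and -4.38 on the wild-type-labelled array, at least 2.26-fold lower. Its other probe, above background on neither array, differed by -0.12. For its partner Ndc80 and for Cenpf the probes were above background on neither array, with measured differences of 0.35 and -1.41 that carry no direction. In the wider mitosis list the centromere protein genes, named here after their values were seen, lay on both sides of 0. Cenpn was at 0.24, Cenpm at 0.13, Cenph at 0.07, Cenpk at -0.12 and Cenpw at -0.25.

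Checkpoint genes, which hold anaphase until chromosomes are attached, spread widely. Bub1b read -4.28 on the knockout-labelled array and -3.54 on the wild-type-labelled array, 1.68-fold lower. Bub1 was -4.95 on the knockout-labelled array and -4.73 on the wild-type-labelled array, but its 8 spots gave differences from -0.71 to 0.33, with an SD of 0.35, so the spots of the 2 arrays overlap. Mad2l1, a checkpoint effector with 3 probes, was at 0.31 on the knockout-labelled array and 0.36 on the wild-type-labelled array and differed by -0.05, within the spot SD, while the lowest of its probes gave -0.32. The checkpoint kinase Ttk was above background on neither array, with a measured difference of 0.49.

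Mitotic kinases lay on both sides of 0. Aurka, which builds the spindle poles, read 0.08 on the knockout-labelled array and 0.34 on the wild-type-labelled array, a difference of -0.26 against a spot SD of 0.05. Tpx2, which activates Aurka on the spindle, was 1.49-fold lower at -3.34 on the knockout-labelled array and -2.77 on the wild-type-labelled array, with 0.29 in a second probe above background on neither array. Plk1, the polo-like kinase that drives mitotic entry and exit, was the 1 mitosis gene above background on both arrays that was higher, at -0.09 on the knockout-labelled array and -0.32 on the wild-type-labelled array, a difference of 0.23 against a spot SD of 0.09.

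The chromosomal passenger complex corrects faulty attachments. Its kinase Aurkb was above background on neither array, with a measured difference of 0.48. Birc5, the survivin subunit, read -1.09 on the knockout-labelled array and -0.75 on the wild-type-labelled array. Its difference was -0.34, and its dimmer probe gave -0.72, the widest gap among the 8 genes for which several probes passed background on both arrays. The scaffold Incenp was near level, at 2.37 on the knockout-labelled array and 2.46 on the wild-type-labelled array.

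Genes of mitotic exit and cytokinesis were mildly lower. Cdc20, the activator of the anaphase-promoting complex, read -1.48 on the knockout-labelled array and -1.22 on the wild-type-labelled array, a difference of -0.27. Ube2c, the ubiquitin-conjugating enzyme of that complex, read -2.94 on the knockout-labelled array and -2.71 on the wild-type-labelled array, and its 2 probes gave -0.24 and -0.21. Prc1, which bundles midzone microtubules, differed by -0.07, and Anln, the contractile ring scaffold anillin, by -0.06, both within the spot SD at their signals.

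**Figure D3:**
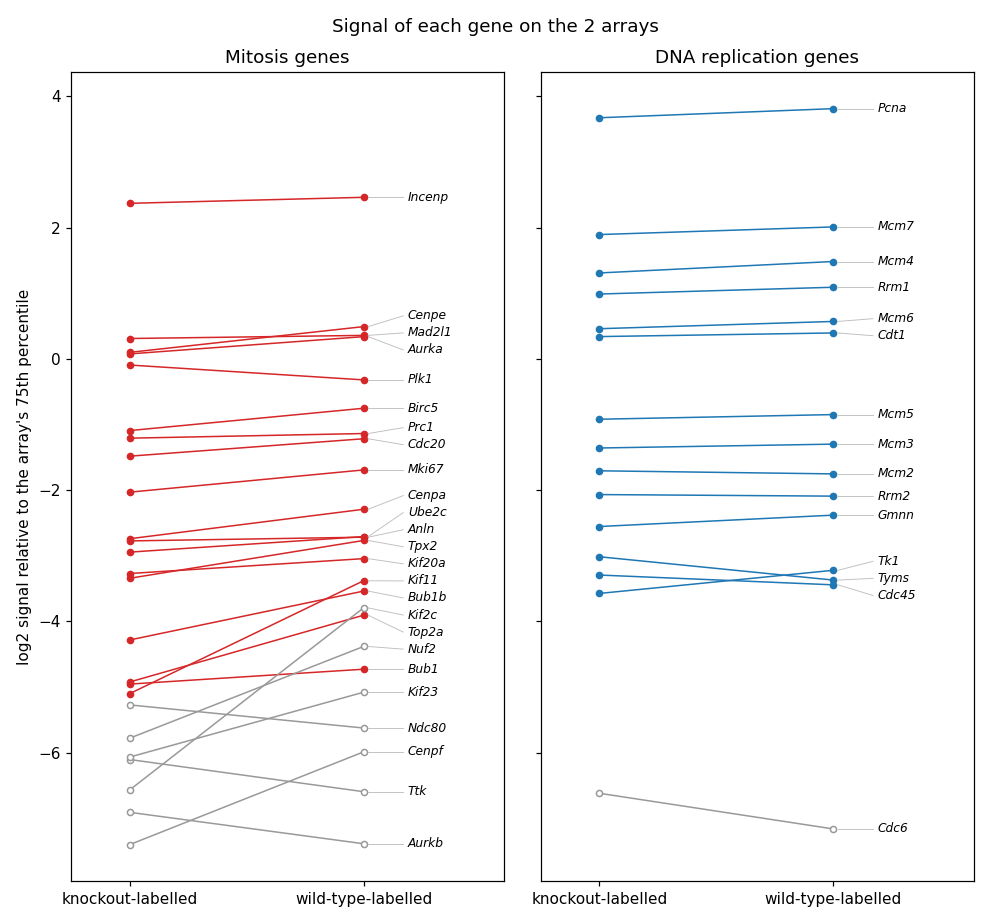
Log2 signal of each mitosis gene and each replication gene on the knockout-labelled and the wild-type-labelled array, relative to the array's 75th percentile. Filled points in colour are genes above background on both arrays and open grey points those that were not. Lines of most mitosis genes slope up to the wild-type-labelled array, as those of Kif11, Kif2c and Top2a do, while replication lines run from -0.35 for Tk1 to 0.36 for Tyms among genes above background on both arrays.

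Among replication genes the Mcm helicase subunits stayed within a narrow range, from -0.17 for Mcm4 to 0.05 for Mcm2. Mcm4 read 1.31 on the knockout-labelled array and 1.49 on the wild-type-labelled array. Mcm7, at 1.90 on the knockout-labelled array and 2.01 on the wild-type-labelled array, differed by -0.12. Mcm6, at 0.46 on the knockout-labelled array and 0.57 on the wild-type-labelled array, differed by -0.11. Mcm3 and Mcm5 differed by -0.06 and -0.07. The shifts of Mcm4, Mcm6 and Mcm7 exceed the spot SD of 0.05 at their signals, those of the other subunits do not. All 3 lie inside the 5th to 95th percentile of all named genes at those signals, -0.22 to 0.24.

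Loading and licensing factors showed no common direction. Cdt1, which loads the helicase, differed by -0.06, and its inhibitor geminin (Gmnn) by -0.17. Cdc45, part of the active helicase, was at 0.15. Cdc6, another loader, was above background on neither array, with measured differences of 0.54 and, in its other probe, -0.13. Pcna, the sliding clamp of DNA polymerase, was at 3.68 on the knockout-labelled array and 3.81 on the wild-type-labelled array, a difference of -0.14.

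The enzymes of nucleotide supply held both ends of the class. Tk1, thymidine kinase, read -3.57 on the knockout-labelled array and -3.22 on the wild-type-labelled array, a difference of -0.35. Tyms, thymidylate synthase, went the other way, at -3.01 on the knockout-labelled array and -3.37 on the wild-type-labelled array, a difference of 0.36. The spot SD at these signals is 0.19. The ribonucleotide reductase subunits Rrm1 and Rrm2 differed by -0.10 and 0.02. All 6 replication genes with a mean signal of 0 or more were lower, with a median of -0.11, against 58.7% of all 8728 named genes in that range.

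Of the cyclins, those of mitosis differed most. Ccnb2 read -1.66 on the knockout-labelled array and -1.11 on the wild-type-labelled array, 1.47-fold lower, with a difference of -0.55 against a spot SD of 0.09. Ccnb1, the main mitotic cyclin, read -3.87 on the knockout-labelled array and -3.28 on the wild-type-labelled array, a difference of -0.58. Their partner kinase Cdk1 differed by -0.20, within the spot SD of 0.37, and Cdc25c, a phosphatase that activates it, by -0.18, within the spot SD of 0.19. Ccna2, a cyclin of S and G2 phase, was higher instead, at -0.90 on the knockout-labelled array and -1.09 on the wild-type-labelled array, a difference of 0.19 against a spot SD of 0.09.

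Most genes of the G1 side of the engine differed little. The D-type cyclins Ccnd1, Ccnd2 and Ccnd3 differed by -0.01, -0.02 and -0.12, the kinases Cdk4 and Cdk2 by -0.01 and 0.05, cyclin E1 (Ccne1) by 0.00 and the phosphatase Cdc25b by 0.04. A second Ccne1 probe, also above background on both arrays, gave -0.28. Cdk6, a partner of D-type cyclins, was further apart, at -4.20 on the knockout-labelled array and -4.85 on the wild-type-labelled array. It was 1.57-fold higher, with a difference of 0.65 at a signal where the spot SD is 0.37. Ccne2 was above background on neither array. Over the 13 cyclins, kinases and phosphatases above background on both arrays the median was -0.01, with 8 lower, against 58.1% of all named genes so filtered.

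The transcription factors and inhibitors of the cycle lay on both sides of 0. E2f1, an activator of S-phase genes, differed by -0.01. Foxm1, an activator of mitosis genes, read -3.37 on the knockout-labelled array and -3.48 on the wild-type-labelled array, a difference of 0.11 within the spot SD of 0.19. Its second probe, above background on neither array, differed by 0.97. The inhibitor Cdkn1a (p21) had 10 spots with differences from -0.08 to 0.16, which span 0. A second Cdkn1a probe, above background on neither array, gave -0.36. Cdkn1c (p57) differed by 0.00. Cdkn1b (p27) differed by 0.11 and Cdkn2c (p18) by -0.29, beyond the spot SD of 0.05 and 0.19 at their signals but inside the 5th to 95th percentile of all named genes there.

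The size of a difference tracked the dimness of the probe. Each of the 60 genes at least 2-fold lower had a mean signal below -4, where 8.29% of all 7120 named genes were also at least 2-fold lower. In that range 7 of 10 mitosis genes were lower, against 71.0% of all genes there, and 5 were at least 2-fold lower. From -4 to -2 the count was 6 of 6 with a median of -0.34, from -2 to 0 it was 4 of 5 with -0.27, and at 0 or more 4 of 4 with -0.18. In those ranges the medians of all genes were -0.04, -0.02 and -0.02, and 57.5%, 57.1% and 58.7% of all genes were lower. None of the genes with a mean signal of -4 or more was 2-fold lower, against 0.569% of all 14247 such genes. At signals of -2 or more, where spot noise is small, 8 of 9 mitosis genes and 8 of 9 replication genes were lower, against 58.3% of all 11823 genes in that range.

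**Figure D4:**
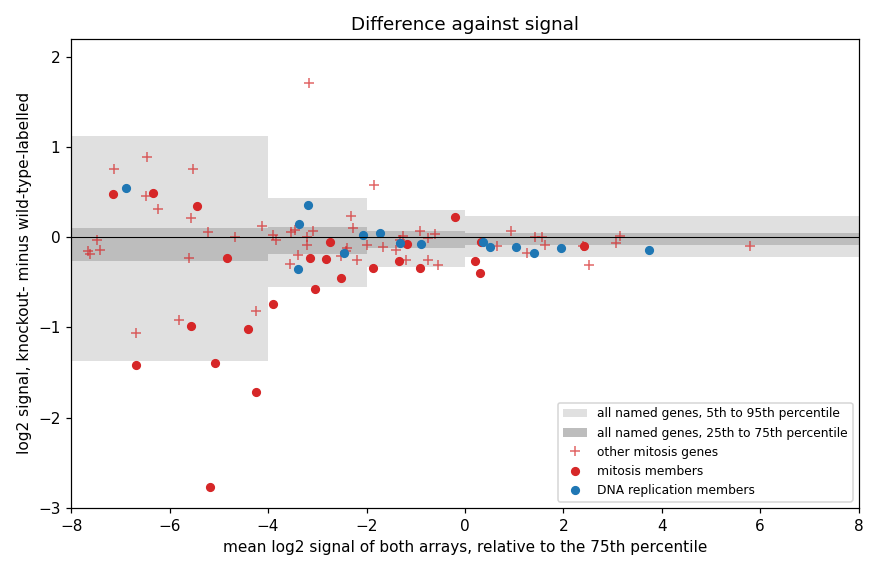
Difference in log2 signal, knockout-labelled minus wild-type-labelled, against the mean log2 signal of both arrays for mitosis members, replication members and other mitosis genes, with no filter. Grey bands give the 25th to 75th and the 5th to 95th percentiles of all named genes in 4 ranges of signal. Below -4 the band reaches from -1.38 to 1.12, and Kif2c, Kif11, Cenpf and Nuf2 lie under it.

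Normexp, a background correction with an offset that draws dim differences toward 0, left 17 of 18 mitosis genes lower and reduced most of the sizes. With it Kif11 was at -0.67, Kif2c at -0.53, Nuf2 at -0.31 and Top2a at -0.30, so 0 genes were 2-fold lower. Brighter genes moved less: Cenpe went from -0.39 to -0.33, Aurka from -0.26 to -0.33, Ccnb2 from -0.55 to -0.45 and Plk1 from 0.23 to 0.24. Aurka and Plk1 thus moved away from 0, and the moves of Cenpe, Aurka and Ccnb2 exceeded the spot SD at their signals. The mitosis median over genes above background on both arrays was -0.19, with 17 of 18 lower, and that of replication -0.08, with 12 of 14 lower.

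The contrast was not seen in wider lists of the same processes, taken above background on both arrays. There the mitosis median was nearer 0 than the replication median. That order depended on the filter and the probes used. At mean signals of -2 or more the medians were -0.086 for mitosis and -0.057 for replication. With the mean over probes they were -0.065 for mitosis and -0.057 for replication. Of 57 further mitosis genes, 43 were above background on both arrays, and 26 of these (60.5%) were lower, with a median of -0.03. The lowest were Nek2, a centrosome kinase, at -0.81, and Racgap1, of the central spindle, at -0.30. The highest were Kifc1, a minus-end kinesin, at 0.58, and Pbk, a mitotic kinase, which read -2.32 on the knockout-labelled array and -4.03 on the wild-type-labelled array. Pbk was the 1 gene of that list at least 2-fold apart among those above background on both arrays. The share lower in this wider list is near the 58.1% of all genes.

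Of 40 further replication genes, 37 were above background on both arrays and 28 (75.7%) were lower, with a median of -0.06. They ran from Uhrf1, which maintains DNA methylation at forks, at -0.44, and the initiation factor Mcm10 at -0.39, to the primase subunit Prim2 at 0.34 and the polymerase alpha subunit Pola2 at 0.56. Of 38 further genes of cycle control, 33 were above background on both arrays, with 17 lower and a median of -0.00494. Mybl1 and Cdkn2a were lowest, at -0.72 and -0.56, and E2f6 and Trp53 highest, at 0.47 each. None of the genes in these 2 lists above background on both arrays was 2-fold apart. In the wider mitosis list 13 of 25 genes with CHR letters and 10 of 12 without them were lower.

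**Figure D5:**
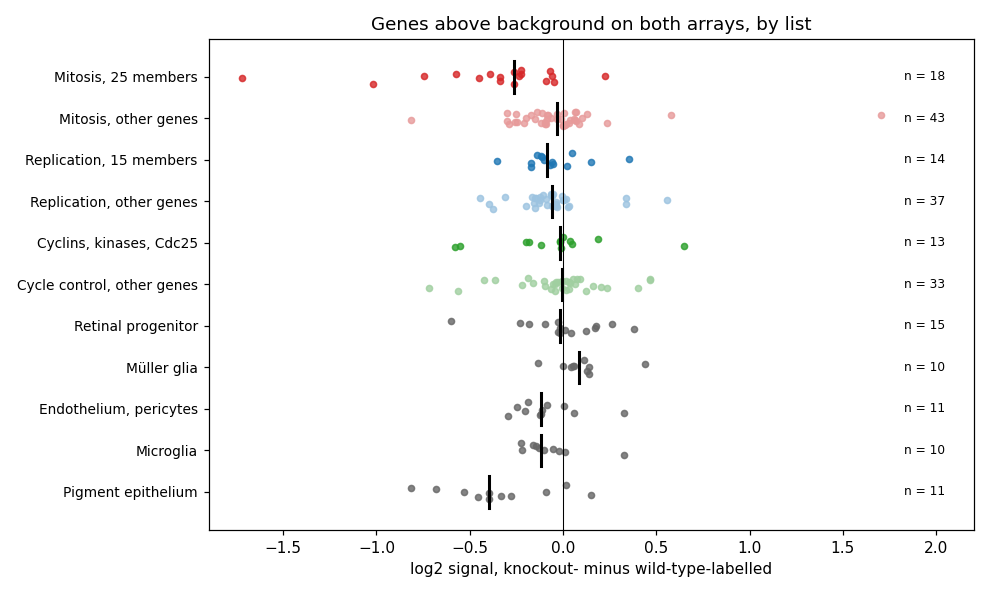
Difference in log2 signal, knockout-labelled minus wild-type-labelled, of each gene above background on both arrays, by list, with the list median as a black bar and n at the right. The 18 mitosis members above background on both arrays centre on -0.26, the other mitosis genes on -0.03 and retinal progenitor markers on -0.02.

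Markers of cell types that could hold dividing cells were set beside these values. Among all named genes above background on both arrays, 58.1% were lower. The 15 retinal progenitor markers had a median difference of -0.02 with 8 lower, from Fgf15 at -0.60 to Hes1 at 0.38. Their signals, each relative to the 75th percentile, summed to 119.74 on the knockout-labelled array and 114.87 on the wild-type-labelled array. The 25 mitosis genes summed to 11.9 (knockout-labelled) and 13.3 (wild-type-labelled), and the 15 replication genes to 25.6 (knockout-labelled) and 27.8 (wild-type-labelled). The 11 endothelial and pericyte markers had a median of -0.12 with 8 lower and sums of 30.3 (knockout-labelled) and 31.4 (wild-type-labelled), and the 10 microglial markers a median of -0.12 with 8 lower and sums of 23.1 (knockout-labelled) and 22.2 (wild-type-labelled). In the progenitor and microglial lists the median and the sum thus differ in sign. A sum gives most weight to the brightest probe of a list. That was Itgam for microglia, at 3.52 (knockout-labelled) and 3.19 (wild-type-labelled), and Kdr for endothelium and pericytes, at 4.07 on each array. Müller glia markers were lower for 2 of 10, with sums of 309.52 (knockout-labelled) and 280.90 (wild-type-labelled), and astrocyte markers for 4 of the 4 above background on both arrays, with sums of 8.86 (knockout-labelled) and 9.25 (wild-type-labelled).

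Neighbouring tissues differed between the 2 arrays. Of the 11 pigment epithelium markers above background on both arrays 9 were lower, against 58.1% of all named genes so filtered. Their median was -0.39, with sums of 26.0 on the knockout-labelled array and 34.6 on the wild-type-labelled array. Rpe65 read 1.22 (knockout-labelled) and 1.67 (wild-type-labelled), whereas Lrat was above background on neither array. Of the 10 lens markers above background on both arrays 9 were higher, against 6386 of all 15256 such genes. Lens sums were 20.5 (knockout-labelled) and 4.99 (wild-type-labelled). The 4 red cell markers had a median of 0.26. The part of these cell types in the mitosis values was not tested.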

How the data were processed

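Cy3-labelled RNA was read on Agilent 1-colour arrays with Feature Extraction 11.5.1.1 (protocol GE1_1105_Oct12, design build mm9), per the file headers. The deposited values used are linear intensity, the scanner's processed signals, already background-subtracted, per the file headers. The authors' value table holds the same intensity times 1 constant per array (median log2 ratio to the scanner signal 1.37 on the knockout-labelled and 1.31 on the wild-type-labelled array), by a rule not given in the sources used here. It served as an alternative.

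Each array had 59305 non-control spots, of which 36143 (60.9%) on the knockout-labelled and 35745 (60.3%) on the wild-type-labelled array were well above background and none was saturated. Flagged spots (163 on the knockout-labelled and 119 on the wild-type-labelled array) were left out. Log2 signals were centred on the array's 75th percentile and spots of 1 probe averaged. Probes were named by transcript through RefSeq (GRCm38.p6): 28330 of 55677 had 1 symbol, 0 had several and 27347 had none. The brightest probe stood for a gene. A gene above background (over 50% of its spots) on 1 array only has a bound against its own signal on the dim array or that array's lowest signal above background, whichever is higher, and 20 such genes have no fold.

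All 60 genes are named, with, from each wider list, the 2 highest and 2 lowest above background on both arrays and those 2-fold apart. The centromere protein genes of the wider mitosis list were added after their values were seen. The genes and lists were chosen with earlier results of these data known. A count refers to 2-fold. The counting was tested on simulated data. Alternatives were median centring, quantile normalization, loess, the authors' table, limma's normexp (offset 50), the mean over probes, other filters, folds and class assignments. Tools were R 4.3.3, limma 3.58.1, Python 3.11.15, pandas 2.3.3, numpy 2.4.6, statsmodels 0.14.6 and matplotlib 3.10.9. The number of arrays, 1 a group, limits the precision.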

Additional observations from a re-analysis of the deposited data

How the results depend on the processing

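The 4 genes at least 2-fold lower became 0 under normexp, 2 among genes above background on both arrays, 0 at a 4-fold threshold and 0 among genes with a mean signal of -4 or more, a filter chosen after seeing the data, and 3 under median centring, quantile normalization, loess and the mean over probes. At 1.5-fold, 5 genes were lower, against 4 at 2-fold, and 1 gene (Cdk6) was higher, against 0 at 2-fold. Fewer genes counted or the stricter fold explain the filter and fold values. With genes above background on 1 array included, the mitosis median was -0.34 and ran from -0.34 to -0.20 over the alternatives. The replication median was -0.09 and ran from -0.09 to -0.05, and their gap was -0.25 and ran from -0.25 to -0.12, smallest under normexp. The mitosis genes so included, Kif23, Kif2c and Nuf2, passed only on the wild-type-labelled array and could therefore only be lower. On genes above background on both arrays the mitosis median was -0.26 and the gap -0.18. Normexp moved 22 of 60 gene differences beyond the spot SD and the mean over probes 8, the other scalings 0, and 17 of 360 recomputed values, of 11 genes, had another sign. No paired analysis was possible because neither group holds more than 1 array. With 1 array a group no difference could be set against the spread between animals, and the values of dim genes such as Kif11, Kif2c, Nuf2 and Top2a depend on the background correction.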
